A study of Mus musculus with 8 samples.

Results

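Aminoacyl-tRNA synthetases are the enzymes that charge each transfer RNA with its amino acid. Their transcripts were followed in the hippocampus of mice lacking Kv10.1, the voltage-gated potassium channel encoded by Kcnh1, and of wildtype mice. The genes were chosen by name as a family, after earlier results of these data had drawn attention to one of them, Iars2, which read lower in the knockouts. The rule names 36 synthetases, of which 35 were found by their gene symbol in the platform annotation, Mars under the symbol Mars1, and Dars was not analysed here. These 35 genes are 19 cytosolic and 16 mitochondrial enzymes among 19921 named genes, and each has 1 probe set.

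RNA came from the dissected hippocampus of 8 male mice aged 8 weeks, 4 Kv10.1 -/- and 4 Kv10.1 +/+, with 1 mouse on each Affymetrix array. The mice were untreated. The sources used here do not state the strain background, the part of Kcnh1 that was disrupted or whether the disruption was limited to some cells. Values are the authors' log2 expression levels, and every difference is knockout minus wildtype on that scale. In this bulk tissue, fewer cells of a type and less RNA per cell cannot be told apart.

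Cells of animals keep separate sets of these enzymes for cytosolic and mitochondrial translation, almost all encoded by nuclear genes of their own. Gars and Kars are exceptions, since each encodes both forms, and they are counted here as cytosolic. Several cytosolic synthetases sit in a multi-synthetase complex held together by the scaffold proteins Aimp1, Aimp2 and Eef1e1. Many cytosolic synthetase genes are induced with amino acid transporters and biosynthetic enzymes by the transcription factor ATF4, when amino acids run short or eIF2 is phosphorylated. In humans, mutations of several cytosolic synthetases cause peripheral neuropathy, and mutations of several mitochondrial ones cause disease of brain white matter or hearing loss.

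The 8 arrays had medians between 7.5 and 7.55. Kcnh1 checked the labels, with knockout values from 8.29 to 8.43 and wildtype values from 9.22 to 9.52. Of the 14 hippocampal neuron markers looked at, 13 lay above the median probe set. The first principal component set wildtype 1 (score 32.0) and knockout 1 (14.9) apart from the other arrays, whose scores ran from -15.9 to 0.81. Mouse numbers come in a lower series, 3749 to 3753, with wildtype 1, 2 and 3 and knockout 1, and a higher series, 3759 to 3763, with wildtype 4 and knockout 2, 3 and 4. Genotype and series therefore overlap heavily. The sources used here do not say what the series stands for, such as litter or day. Choroid plexus markers were high in wildtype 2 (mean of gene-centred levels 0.65, against -0.25 to 0.019 in the other 7 arrays).

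Iars2 encodes the mitochondrial isoleucyl-tRNA synthetase. Its level was 8.70, 8.43, 8.30 and 8.46 in knockouts 1 to 4 and 8.70, 8.79, 8.90 and 8.72 in wildtypes 1 to 4. Knockouts 2, 3 and 4 lay below every wildtype mouse, while knockout 1 read the same as wildtype 1. The knockout mean was 8.47 ± 0.167 (SD, n = 4). The wildtype mean was 8.78 ± 0.090 (SD, n = 4), so the difference came to -0.31 with a standard error of 0.093. This is a 1.24-fold lower level, and because this difference led to the choice of the family it is given as a description with no test. Iars2 was not past an adjusted p of 0.05 over all probe sets. Only 1 of 20985 probe sets was past it, Kcnh1.

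Within the series of mouse numbers, the Iars2 difference was larger in the higher one. There the knockouts averaged 8.40 (n = 3) and the single wildtype mouse read 8.72, a difference of -0.32. In the lower series the single knockout read 8.70 and the wildtype mice averaged 8.80 (n = 3), a difference of -0.097. Leaving out each mouse in turn gave -0.38 to -0.25, and the fit blocked on the series gave -0.21.

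Iars2 lies on chromosome 1 within 10 Mb of Kcnh1, next to Bpnt1, and Eprs follows Bpnt1 in the gene order. Bpnt1 encodes a phosphatase of the sulfate activation pathway and is not a synthetase. Iars2 is read from the minus strand and Bpnt1 from the plus strand, away from each other, and RefSeq places the annotated start of Bpnt1 within the 300 bases around the Iars2 start. That stretch, from 250 bases before to 50 after the Iars2 start, is chr1:185329352-185329651 on the minus strand of GRCm38.p6 (RefSeq). It is shown because it is the shared upstream region of the 2 genes, with the letters GGGCGG or their reverse complement in capitals:
Iars2: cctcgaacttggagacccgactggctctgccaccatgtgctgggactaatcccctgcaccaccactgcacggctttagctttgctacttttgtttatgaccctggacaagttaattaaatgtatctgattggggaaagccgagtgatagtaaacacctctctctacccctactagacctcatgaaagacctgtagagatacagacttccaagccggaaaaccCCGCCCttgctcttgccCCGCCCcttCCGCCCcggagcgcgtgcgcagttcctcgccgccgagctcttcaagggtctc
These GC boxes occur 3 times in it, and 38.2% of 27025 genes with a promoter in the table hold at least 1. A match is a description of the letters and not of a bound factor.

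Bpnt1 read 10.48, 9.74, 9.74 and 9.38 in knockouts 1 to 4 and 9.92, 10.51, 10.50 and 10.46 in wildtypes 1 to 4. As with Iars2, knockouts 2, 3 and 4 lay below every wildtype mouse and knockout 1 did not, reading within the range of the wildtype mice. The difference of -0.51 ± 0.214 (SE) did not pass over all probe sets (limma adjusted p = 0.997). Leaving out each mouse in turn gave -0.73 (without knockout 1) to -0.36 (without knockout 4), with -0.66 without wildtype 1, the lowest wildtype mouse. The Bpnt1 difference was -0.335 in the fit blocked on the series of mouse numbers. In the higher series it was -0.84 (3 knockouts, 1 wildtype) and in the lower series 0.17 (1 knockout, 3 wildtypes). The earlier account of these data had already placed Iars2 and Bpnt1 among the lower genes near Kcnh1, so their shared direction is not independent of the choice.

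Eprs encodes the cytosolic enzyme that charges both glutamate and proline, a member of the multi-synthetase complex. Its level was 9.67, 9.67, 9.69 and 9.76 in the knockouts and 10.06, 9.80, 9.81 and 9.77 in the wildtype mice. The groups did not overlap, but the gap between the highest knockout and the lowest wildtype mouse was as small as the last digit of the values. The difference was -0.16 ± 0.080 (SE; limma adjusted p = 0.997), and -0.096 without wildtype 1. Within the series of mouse numbers it was -0.22 in the lower and -0.063 in the higher one. Eprs was the single synthetase of 35 whose groups did not overlap with the knockouts lower, and 1.19% of all probe sets did the same. With the knockouts higher there were 0 of 35, beside 0.967%. Iars, the cytosolic isoleucyl enzyme on chromosome 13, read 9.34, 9.34, 9.30 and 9.13 in knockouts and 9.50, 9.35, 9.33 and 9.20 in wildtype mice. These groups overlapped widely, and the Iars difference was -0.068 with a 95% interval from -0.25 to 0.12.

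**Figure D1:**
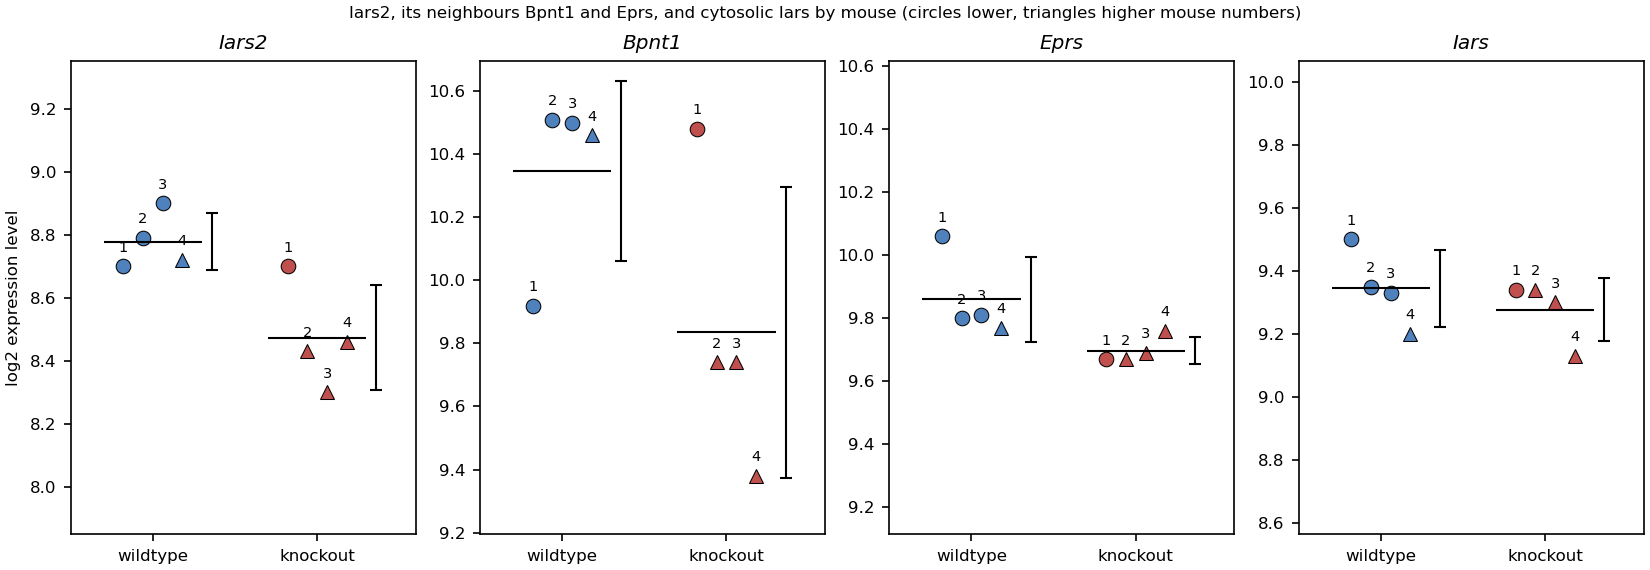
Log2 expression level of Iars2, Bpnt1, Eprs and Iars in each mouse, numbered by replicate, with the line at the group mean and the bar at ± 1 SD (n = 4). Circles are mice of the lower series of mouse numbers and triangles those of the higher series, each panel spans 1.5 log2 units, and knockouts 2, 3 and 4 lie lowest for Iars2 (8.30 to 8.46) and Bpnt1 (9.38 to 9.74).

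Across the family, no synthetase passed the test over all probe sets, where 0.00477% did, and the adjusted p was at least 0.997 for each. At an unadjusted p under 0.05 there were 2 of 35, Iars2 lower and Farsb higher, beside 3.16% of all probe sets (1.53% lower, 1.63% higher), and the contrast that chose Iars2 is the same one. More synthetases had a lower than a higher mean in the knockouts, 26 against 8, with Lars at 0.00, where 50.9% of all probe sets had a lower mean. The median difference was -0.058 over the 35 genes and -0.0025 over all probe sets. Standard errors ran from 0.063 to 0.16, so a difference of this size could not be resolved for any 1 gene.

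The excess of lower means was not seen within either series of mouse numbers. In the lower series 18 of 35 synthetases were lower in knockout 1 than in the mean of wildtype 1, 2 and 3, with a median difference of -0.0067. In the higher series 17 of 35 were lower in the mean of knockout 2, 3 and 4 than in wildtype 4, with a median of 0.00. In the fit blocked on the series, 17 of 35 were lower. Genotype and series could be separated only in part, since each series holds a single mouse of one genotype. The shares of all probe sets lower within each series and in the blocked fit are not given here.

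**Figure D2:**
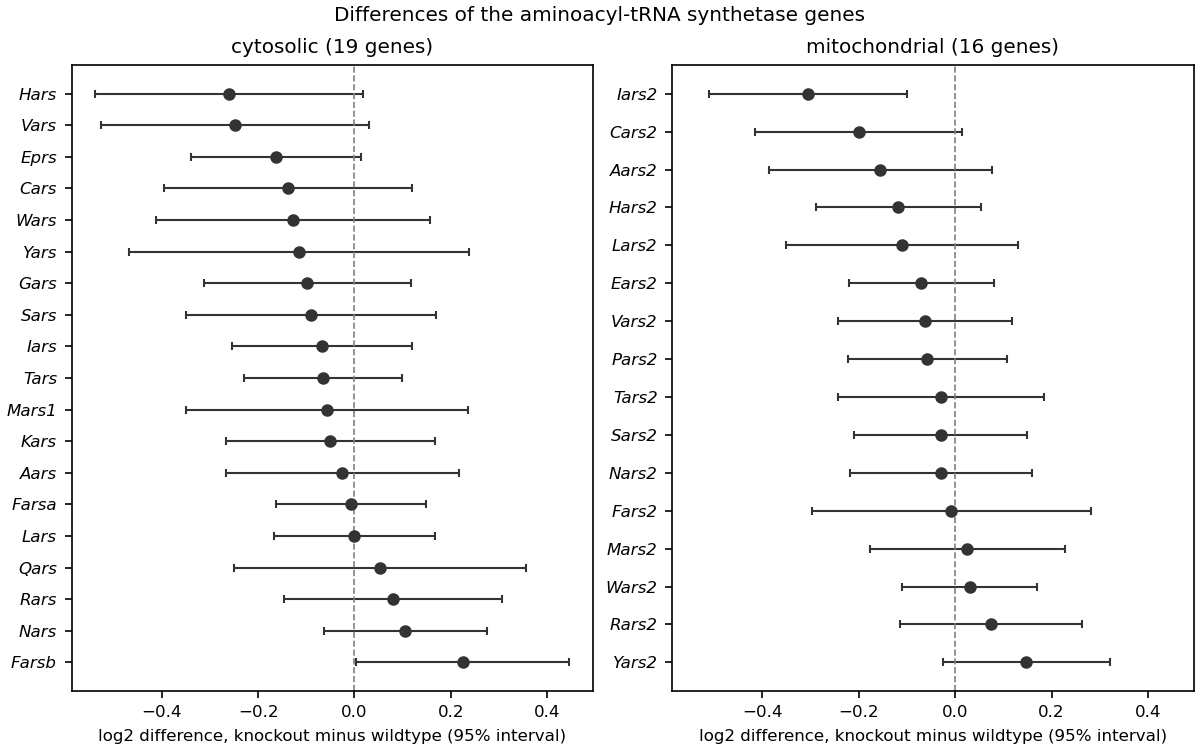
Difference in log2 level, knockout minus wildtype, for 19 cytosolic (left) and 16 mitochondrial (right) synthetase genes, with points at the estimate and bars at the 95% interval from limma (4 mice per genotype). The most negative estimate is that of Iars2 (-0.31), whose difference led to the choice of the family and is shown as a description, and the most positive that of Farsb (0.23).

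The cytosolic probe sets were mostly brighter than the mitochondrial ones, and the genotype differences of both compartments were small. Mean levels ran from 8.06 (Farsa) to 10.7 (Nars) for the 19 cytosolic genes and from 6.85 (Pars2) to 8.63 (Iars2) for the 16 mitochondrial genes. Above the upper quartile of all probe sets, 8.77, lay 13 of 19 cytosolic and 0 of 16 mitochondrial genes. Probe sets respond differently, so no enzyme's level is ranked against that of another. Knockouts had a lower mean in 14 of 19 cytosolic and 12 of 16 mitochondrial genes, with medians of -0.065 and -0.044. Blocked on the series of mouse numbers, these medians were 0.0017 and -0.0050. Within the lower series they were -0.0067 for cytosolic and -0.0033 for mitochondrial genes, and within the higher series 0.010 and -0.025. A score was taken for each array by subtracting from every gene its own 8-array mean and averaging over genes. The cytosolic score differed by -0.055 and the mitochondrial by -0.056, so that their difference was 0.00096, against array values from -0.068 to 0.045. The cytosolic score differed by 0.039 within the lower and 0.0047 within the higher series, and the mitochondrial score by 0.015 and -0.020. For 13 amino acids with an enzyme in each compartment under matching names, the mitochondrial gene had the lower difference in 6 pairs. These include Rars and Rars2, whose differences were both positive and nearly equal (0.08 and 0.075).

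Among cytosolic enzymes, the largest differences belonged to Hars, Vars, Farsb and Eprs. Hars, which charges histidine, read 8.73, 8.73, 8.66 and 8.53 in knockouts and 9.29, 8.98, 8.70 and 8.72 in wildtype mice. The groups overlapped, and the Hars difference of -0.26 ± 0.125 (SE) was -0.14 without wildtype 1, the highest array. Within the lower and the higher series of mouse numbers it was -0.26 and -0.080. Vars, which charges valine, read 8.35, 8.09, 8.07 and 7.87 against 8.66, 8.23, 8.18 and 8.30. Its difference of -0.25 ± 0.126 (SE) was likewise -0.14 without wildtype 1, and knockout 1 lay above every wildtype mouse but wildtype 1. Within the lower series the Vars difference was -0.0067 and within the higher one -0.29.

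Farsb, the beta subunit of the phenylalanyl enzyme, ran the other way. It read 10.27, 9.82, 9.87 and 10.07 in knockouts and 9.75, 9.84, 9.73 and 9.81 in wildtype mice, with knockouts 1, 3 and 4 above every wildtype mouse. The difference was 0.23 ± 0.100 (SE; limma adjusted p = 0.997) and was 0.14 without knockout 1. Within the lower series, where knockout 1 is the single knockout, it was 0.50, and within the higher one 0.11. Farsa, the alpha subunit of the same enzyme, differed by -0.0075, with knockouts from 7.94 to 8.13 and wildtype mice from 8.01 to 8.12. Whether the subunits differed from each other was not tested.

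Among mitochondrial enzymes, Cars2, Aars2 and Yars2 followed Iars2 in size. Cars2, for cysteine, read 7.53, 7.43, 7.40 and 7.52 in knockouts and 7.95, 7.62, 7.51 and 7.60 in wildtype mice. The difference of -0.20 ± 0.097 (SE; limma adjusted p = 0.997) was -0.11 without wildtype 1, and knockout 1 and knockout 4 lay just above wildtype 3. Aars2, for alanine, read 7.92, 7.73, 7.60 and 7.55 against 8.06, 7.70, 7.78 and 7.88, with overlapping groups and a difference of -0.16 ± 0.104 (SE; -0.087 without wildtype 1). The Aars2 difference turned from 0.073 within the lower series to -0.25 within the higher one, while that of Cars2 was -0.16 and -0.15. Yars2, for tyrosine, read 8.47, 8.18, 8.35 and 8.33 against 8.16, 8.15, 8.28 and 8.15. Here knockouts 1, 3 and 4 lay above every wildtype mouse, and the difference was 0.15 ± 0.078 (SE; limma adjusted p = 0.997), with 0.27 within the lower and 0.14 within the higher series. The remaining 12 mitochondrial genes had differences between -0.12 (Hars2) and 0.075 (Rars2).

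Whether other synthetases followed Iars2 could be described only in sign. Iars2 levels fell in separate ranges, 3 arrays from 8.30 to 8.46 and 5 from 8.70 to 8.90, so no coefficient for a single gene is given. In sign, 28 of 34 other synthetases had a Pearson r above 0 with Iars2 over the 8 arrays, beside 49.7% of all probe sets. After values were centred on each genotype the count was 23 of 34, beside 46.4%. With values adjusted for the mouse-number series alone it was 12 of 34, and the share of all probe sets is not given there. The 34 genes were read from the same 8 arrays and are not independent of each other.

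The 3 genes with the highest r were Tars, Nars2 and Ears2. The order is a description and was not stable. With values centred on each genotype, Farsb, Qars and Yars2 had a higher r than Ears2. Tars, the cytosolic threonyl enzyme, read 8.22, 8.18, 7.98 and 8.03 in knockouts and 8.18, 8.16, 8.19 and 8.14 in wildtype mice. Knockouts 3 and 4 lay below all other arrays, but knockout 2 lay among the wildtype mice. Nars2 (mitochondrial, asparagine) read 8.44, 8.32, 8.13 and 8.15 against 8.27, 8.37, 8.31 and 8.21, highest in knockout 1. Ears2 (mitochondrial, glutamate) read 7.38, 7.25, 7.26 and 7.22 against 7.41, 7.34, 7.28 and 7.36, and spanned 0.19 in all.

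The 3 with the lowest r were Rars, Nars and Rars2, but with values centred on each genotype the r of Nars was above 0. Rars, the cytosolic arginyl enzyme of the multi-synthetase complex, read 9.77, 10.09, 10.15 and 10.00 in knockouts and 9.71, 9.98, 10.03 and 9.97 in wildtype mice. Knockout 1 and wildtype 1 were its lowest arrays, the reverse of most of the family. Nars read 10.87, 10.77, 10.80 and 10.72 against 10.63, 10.85, 10.62 and 10.64, and only wildtype 2 among wildtype mice lay within the knockout range. Rars2, the mitochondrial arginyl enzyme, read 8.03, 7.96, 8.07 and 8.24 against 8.08, 8.08, 7.99 and 7.85.

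Wildtype 1 and knockout 1 gave the highest level for most synthetases. Wildtype 1 was the highest of the 8 arrays for 11 of 19 cytosolic and 8 of 16 mitochondrial genes, beside 22.3% of all probe sets. Knockout 1 was the highest for 5 and 5 more, beside 12.7% of all probe sets, and knockout 4 the lowest for 10 and 8, beside 17.8%. Over all 20985 probe sets, wildtype 1 was the lowest array for 5371 and the highest for 4672. Its values had an interquartile range of 2.42 and those of knockout 1 of 2.3, against 2.09 to 2.21 in the other arrays. Of the 35 synthetases, 33 lay above the median probe set. The part of this wider spread in the synthetase values was not tested. The cytosolic score was 0.10, 0.012, -0.075 and -0.15 in knockouts 1 to 4 and 0.17, 0.035, -0.023 and -0.075 in wildtypes 1 to 4. The mitochondrial score had a narrower span, from -0.080 in knockout 4 to 0.13 in wildtype 1.

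**Figure D3:**
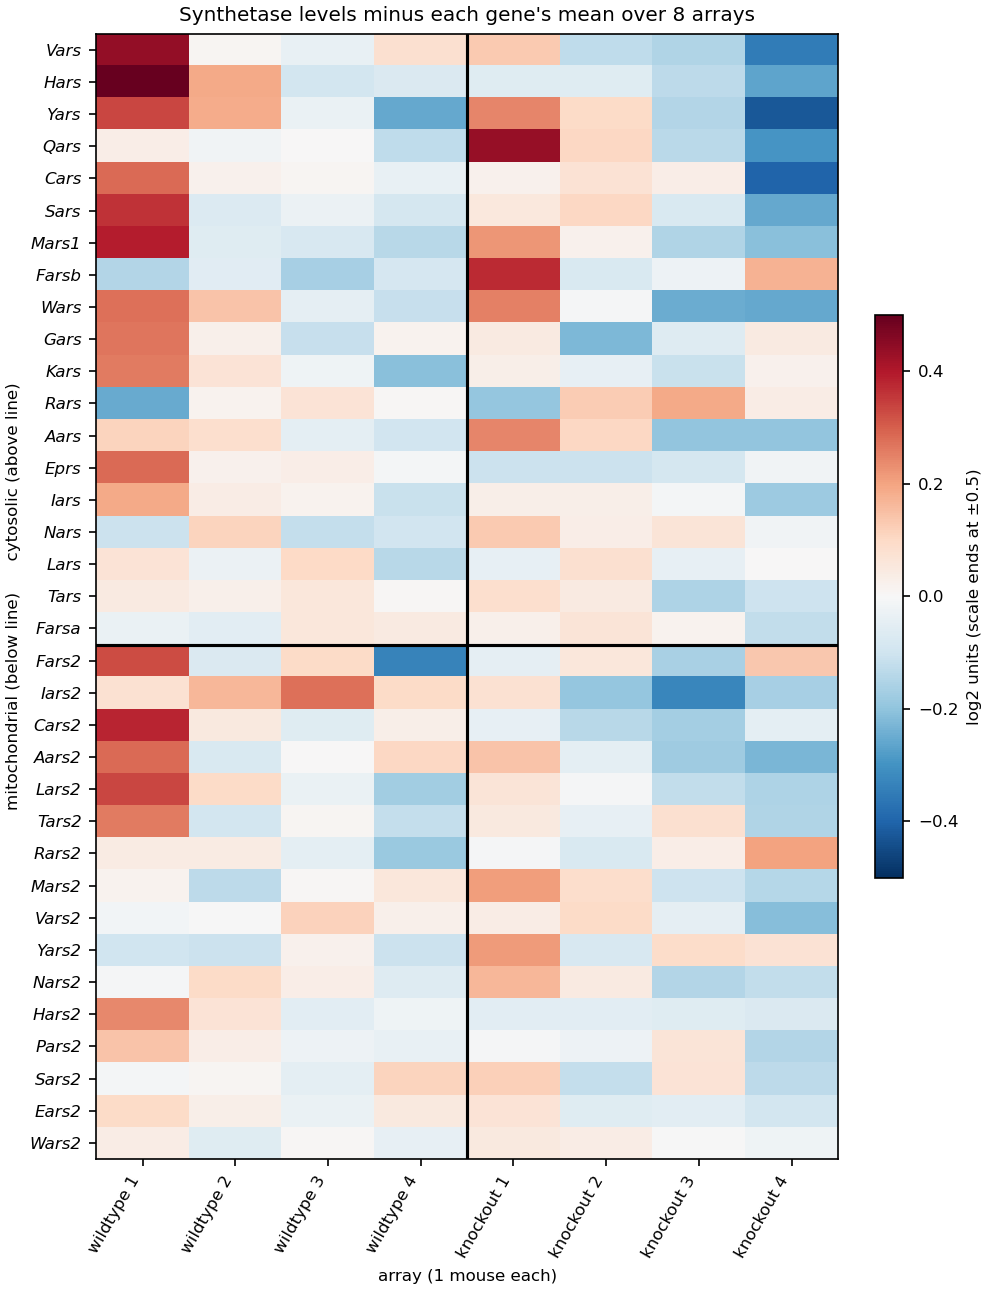
Log2 level of each synthetase minus its mean over the 8 arrays, with genes in rows (19 cytosolic above the line, 16 mitochondrial below, each sorted by the span between arrays) and mice in columns (wildtype left, knockout right). Wildtype 1 is the highest array for 19 of the 35 genes and knockout 4 the lowest for 18, while Iars2 is lowest in knockouts 2, 3 and 4.

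Yars, the cytosolic tyrosyl enzyme, showed this spread most plainly and was picked after its values were seen. It read 9.49, 9.34, 9.10 and 8.82 in knockouts and 9.58, 9.43, 9.21 and 8.99 in wildtype mice, a span of 0.76 beside a difference between genotypes of -0.12 ± 0.159 (SE). Wars, for tryptophan, read 9.78, 9.52, 9.28 and 9.27 against 9.80, 9.67, 9.48 and 9.41. Qars, for glutamine, read 9.57, 9.24, 9.00 and 8.84 against 9.17, 9.12, 9.14 and 9.01, so its span of 0.73 lay mostly among the knockouts. The median span was 0.49 for cytosolic genes, 0.34 for mitochondrial genes and 0.40 for all probe sets.

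Pairs of cytosolic synthetases had a median Pearson r of 0.38 over the 8 arrays and pairs of mitochondrial synthetases 0.24, as a description beside 0.0044 for pairs of all probe sets. Without wildtype 1 and knockout 1, the arrays that stand apart on the first component, these were 0.35 and 0.068. The 7 measured genes of the multi-synthetase complex had a median difference of -0.050, and the 12 cytosolic genes outside it -0.094. The genes of class I and class II enzymes, named for their separate catalytic folds, had medians of -0.065 (18 genes) and -0.040 (16 genes).

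The mean level of astrocyte markers, and in part that of microglia markers, was high in the same arrays, while single markers went both ways. The mean gene-centred level of 10 astrocyte markers was 0.11, 0.050, -0.037 and -0.078 in the knockouts and 0.070, -0.00075, -0.0048 and -0.11 in the wildtype mice, and all 10 lay above the median probe set. Knockout 1 and wildtype 1 had the highest means of the 9 microglia markers too, at 0.066 and 0.068 against -0.038 to -0.0038 in the other 6 arrays. Wildtype 1 was the highest array for 4 of 10 astrocyte markers but the lowest for Aqp4 (10.77), Sox9 (8.91) and Gjb6 (9.04). For microglia it was highest or tied for 4 of 9 markers and lowest for C1qc (8.57) and P2ry12 (7.33). Other lists were ordered otherwise. Oligodendrocyte markers were highest in knockout 3 (0.18) and wildtype 1 (0.16), with knockout 1 at -0.019, over a range from -0.15. Endothelial markers were highest in wildtype 3 (0.17) and wildtype 1 (0.16), with knockout 1 at -0.11. Neuron markers were highest in knockout 4 (0.083) and lowest in knockout 2 (-0.10). Lists that mark no cell type were high in wildtype 1 and knockout 1 too. Genes of eIF2 kinases and their partners stood at 0.18 and 0.079, against -0.081 to 0.0053 in the other arrays. Genes of cytosolic elongation and termination stood at 0.25 and 0.062, against -0.13 to 0.017. The part of the cell types, and of the first principal component, in the synthetase values was not tested.

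**Figure D4:**
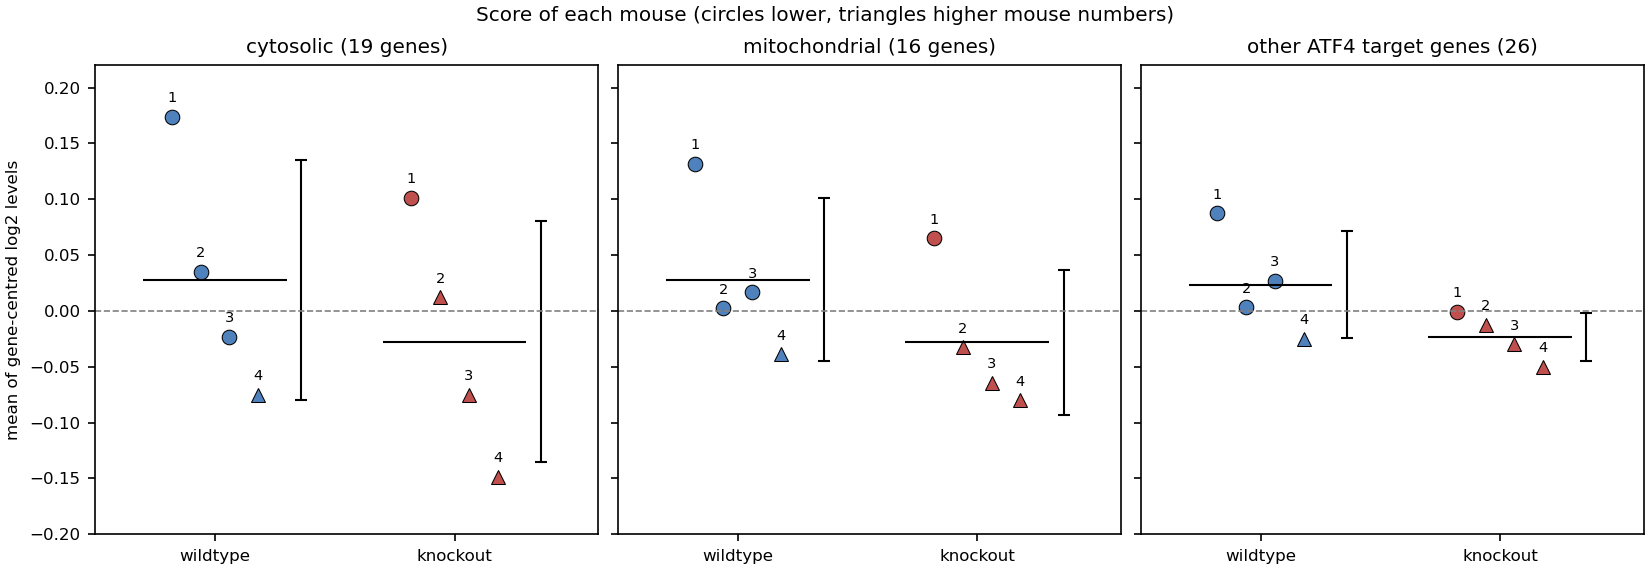
Score of each mouse, the mean of gene-centred log2 levels, for cytosolic synthetases, mitochondrial synthetases and other ATF4 target genes, with the line at the group mean and the bar at ± 1 SD (n = 4). Circles are the lower and triangles the higher series of mouse numbers, and wildtype 1 is highest in all 3 panels (0.17, 0.13 and 0.088).

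Promoters were read because ATF4 acts on part of the family. RefSeq (GRCm38.p6) gave the 300 bases around the start for 26 of the 35 genes, 12 cytosolic and 14 mitochondrial. The letters TGATGCAA, the core of the C/EBP-ATF response element that ATF4 binds, were found on either strand in 4 of these 26 promoters (15.4%), all cytosolic and among them those of Iars, Tars and Yars. They occur in 279 of 27025 genes with a promoter in the table (1.03%). The looser TGATGNAA, which contains it, added Gars (19.2% against 4.51%). The 30 bases around TGATGCAA in these 3 are shown 5′ to 3′ on the gene's strand, with the motif or its reverse complement in capitals:
Iars (chr13:49682126-49682155, plus strand): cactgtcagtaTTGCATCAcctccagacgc
Tars (chr15:11399655-11399684, minus strand): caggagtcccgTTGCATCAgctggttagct
Yars (chr4:129189895-129189924, plus strand): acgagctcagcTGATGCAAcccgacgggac
In Iars and Tars the element is read from the opposite strand and in Yars from the gene's own. Other letters searched on both strands were CACGTG, the E-box (5 of 26 promoters, 8.09% of all), CTTCCGG, an ETS-type site (9 of 26, 9.93% of all), GGGGCGGGG (3 of 26, 12.9% of all) and TGACGTCA, the cAMP response element (0 of 26, 2.03% of all). The motifs were chosen after the values were seen, and the matches were put to no test.

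None of these 3 genes passed the test between genotypes, with differences of -0.068 for Iars, -0.065 for Tars and -0.12 for Yars (limma adjusted p at least 0.997). Aars, the cytosolic alanyl enzyme, differed by -0.025 and read 9.71, 9.57, 9.27 and 9.27 in knockouts and 9.58, 9.55, 9.42 and 9.37 in wildtype mice. Its 4 lowest values were those of knockouts 3 and 4 and wildtypes 3 and 4, as they were for Yars. This was not particular to the pair, since the same 4 arrays were lowest for Iars, Hars, Wars, Mars1 and the mitochondrial Lars2 too.

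Other targets of ATF4 gave no call. Of 28 listed genes 26 were measured, 18 with a lower and 8 with a higher mean in knockouts, a median of -0.022, and 0 passed over all probe sets. Among all probe sets 50.9% had a lower mean, and this list was not counted within the series of mouse numbers. The smallest p belonged to Slc7a5 and Slc3a2, the chains of the large neutral amino acid transporter, and to Mthfd2, a mitochondrial folate enzyme. Slc7a5 read 9.65, 9.59, 9.46 and 9.53 in knockouts and 10.04, 9.71, 9.90 and 9.60 in wildtype mice, a difference of -0.26 ± 0.100 (SE; limma adjusted p = 0.997). Slc3a2 read 10.67, 10.80, 10.74 and 10.77 against 11.04, 10.91, 10.83 and 10.82, so its groups were just apart, with a difference of -0.16 ± 0.074 (SE). Mthfd2, at -0.17, was the other gene of the list whose groups did not overlap, beside 2.16% of all probe sets in either direction. Atf4 itself is on the list and its groups overlapped.

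Kinases that phosphorylate eIF2 and their partners were likewise without a call, with 9 of 12 measured genes lower, a median of -0.016 and 0 past the test. Among all probe sets 50.9% were lower, and this list too was not counted within the series of mouse numbers. Eif2ak4, the kinase GCN2 that senses uncharged tRNA, differed by -0.12, Ppp1r15a, a subunit of the eIF2 phosphatase, by -0.15 and Eif2b3, a subunit of the exchange factor eIF2B, by 0.16. The scaffolds of the multi-synthetase complex differed by -0.050 (Aimp1), -0.020 (Aimp2) and 0.31 ± 0.157 (SE; Eef1e1), with 0 of 3 past the test. Eef1e1 read 9.99, 9.47, 9.61 and 9.62 in knockouts and 8.95, 9.62, 9.29 and 9.59 in wildtype mice, lowest in wildtype 1, where most synthetases were highest.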

How the data were processed

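The authors deposited a log2 level for every probe set on each array, rounded to 2 decimals. The submitters' processing notes name R 2.9, limma and RMA, and RMA as a method subtracts background, equalises array distributions and summarises probes. The sources used here state neither the settings nor the probe set definition. Per the labels' protocols, total RNA was extracted with Trizol and 100 ng were labelled. Signal over background was not analysed here, and the number of arrays limits the precision.

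Arrays were grouped by the genotype in their titles, and replicate numbers follow record order. All 20985 probe sets were fitted with limma 3.58.1 in R 4.3.3 (lmFit, eBayes, two-sided tests), genotype being the only term, Benjamini-Hochberg adjustment over all probe sets and a threshold of 0.05. The fit was tested on simulated data. Genes were named through the platform annotation by symbol, and chromosome order and promoters came from RefSeq tables of GRCm38.p6, while the sources name no build for the deposited values. One promoter stretch is not reported here.

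The family, lists and alternatives were chosen with earlier results of these data known. Values of every array are given for Iars2, Iars, synthetases near Kcnh1, those at an unadjusted p under 0.05 or with groups apart, the 4 cytosolic and 4 mitochondrial genes with the largest difference, and the 3 highest and 3 lowest in r with Iars2. From each list up to 3 members with the smallest p are named. Wars, Qars, Yars, Aars, Farsa, Gars and Lars2 were chosen for naming after their values were seen. The alternatives tried changed the spread estimate (intensity trend, robust fit, weights for arrays), the scaling (quantile normalization again, centring on medians), the filter (dimmest 25% or 50% out), or the samples and terms: a block for mouse-number series, the first component as a covariate, both arrays that stand apart left out, and each mouse left out.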

Additional observations from a re-analysis of the deposited data

Results flagged for a closer look

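Among 78 groups of 4 mice looked at (the 35 synthetases, their scores and Bpnt1, by genotype), 7 held a value whose gap to the nearest other mouse was over 0.829 of the group's range, and chance gives about 1 in 20. Wildtype 1 was the high value for Eprs (10.06, others 9.77 to 9.81), Mars1, the methionyl enzyme (8.78, others 8.25 to 8.33), and Sars, the seryl enzyme (10.39, others 9.94 to 10.00), and the low value for Bpnt1 (9.92, others 10.46 to 10.51). Knockout 4 was low for Cars, the cysteinyl enzyme (8.17, others 8.59 to 8.64). Wildtype 2 was high for Nars (10.85, others 10.62 to 10.64) and wildtype 3 for Yars2 (8.28, others 8.15 to 8.16).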

How the results depend on the processing

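No synthetase passed over all probe sets in the main fit or any of the 18 alternatives. The count of probe sets past the threshold was 1, and 2 with array weights, repeated quantile normalization or the first component as a covariate. Synthetases at an unadjusted p under 0.05 numbered 2 (Farsb and Iars2), but 1 with an intensity trend or with the dimmest 25% or 50% left out (which kept 35 and 33 synthetases), 4 with the first component 5 with repeated quantile normalization, 3 when blocked on mouse-number series (with Yars2), and 1 to 3 without single mice (1 without knockout 4, wildtype 1 or wildtype 2, 3 without knockout 1, knockout 2, wildtype 3 or wildtype 4). With array weights the 2 were Eprs and Iars2, and without both arrays that stand apart Iars2 and Vars. The main count stands beside 3.16% of all probe sets. Shares under the alternatives are not given here, so these counts cannot be set against them. Iars2 led to the choice of the family, so its place in these counts is a description. Lower means numbered 26 of 35, 17 with that block, 20 with array weights, 22 with the first component, 23 with repeated quantile normalization, 24 with median centring, and 19 to 28 without single mice (19 without knockout 4). They numbered 25 without both arrays that stand apart. Positive r with Iars2 numbered 28 of 34, and 12 with values adjusted for the series alone. It numbered 21 with values adjusted for the first component or with repeated quantile normalization, and 24 to 29 without single mice. Iars2 lay between -0.41 and -0.21 in all 18 alternatives. The difference kept its sign in every alternative for 18 of 35 synthetases. The cytosolic median of -0.065 was 0.0017 with the block, -0.022 with array weights, -0.028 with the first component, -0.037 with repeated quantile normalization and -0.11 to -0.016 without single mice (-0.016 without wildtype 1, -0.018 without knockout 4, -0.024 without knockout 3, -0.11 without knockout 1 or wildtype 4), and the mitochondrial median of -0.044 was -0.0050 with the block, -0.023 with repeated quantile normalization, -0.026 with median centring, -0.029 with array weights and -0.080 to -0.010 (-0.010 without knockout 4, -0.028 without wildtype 1, -0.070 without wildtype 4, -0.080 without knockout 1). Without both arrays that stand apart, the medians were -0.057 (cytosolic) and -0.058 (mitochondrial). The causes were not tested. No paired analysis was possible because replicate numbers follow record order. Averaging probe sets of a gene was not run, since each synthetase has 1.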

Other observations

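In other lists of translation genes, 0 passed an adjusted p of 0.05. Their counts of lower means stand beside 50.9% of all probe sets and were not taken within the series of mouse numbers. Among 10 genes of cytosolic elongation and termination, 5 had a lower and 5 a higher mean in knockouts, with a median of -0.0038. Eef1g, a subunit of the factor that reloads elongation factor 1A, read 6.74, 6.63, 6.80 and 6.59 in knockouts and 7.46, 7.07, 6.80 and 6.87 in wildtype mice, a difference of -0.36 ± 0.132 (SE; limma adjusted p = 0.997). Eef2, the translocation factor, differed by -0.31 and was highest in wildtype 1 (11.98, against 10.94 to 11.41 elsewhere), and Eif5a by 0.26. Mitochondrial translation factors had a lower mean in 8 of 13 measured genes, with a median of -0.070, and Tsfm (-0.11), Mtrf1l (-0.10) and Gfm2 (-0.085) had the smallest p.

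Genes of tRNA proofreading and of selenocysteine handling, with other synthetase-like genes, had a lower mean in 8 of 9, beside 50.9% of all probe sets. Their median was -0.11, and 0 passed the test. The mean gene-centred level of this list was highest in wildtype 1 (0.16, against -0.087 to 0.041 in the other arrays). Dtd1, which removes D-amino acids from tRNA, read 9.20, 9.16, 9.08 and 8.84 in knockouts and 9.60, 9.26, 9.14 and 9.21 in wildtype mice. Its groups overlapped in knockouts 1 and 2 and wildtype 3, and Lrrc47 (-0.15) and Secisbp2 (-0.11) came next by p.

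Markers of the cell types in the dissected tissue were also without a call over all probe sets, where the smallest adjusted p was 0.997 in every list. A lower mean in knockouts was found for 10 of 14 neuron markers, 4 of 10 astrocyte, 3 of 9 oligodendrocyte, 4 of 9 microglia, 9 of 10 endothelial and 9 of 10 choroid plexus markers. Among all probe sets 50.9% had a lower mean, and the marker counts were not taken within the series of mouse numbers. Slc2a1, the glucose transporter of brain endothelium, read 10.38, 10.49, 10.78 and 10.30 in knockouts and 11.06, 10.94, 11.06 and 10.77 in wildtype mice, with knockout 3 just above wildtype 4. Its difference of -0.47 ± 0.112 (SE) was followed in that list by Vwf (-0.28) and Abcb1a (-0.17). Dsp, a marker of dentate granule cells in hippocampus, read 8.76, 8.75, 9.18 and 9.09 against 9.40, 9.23, 9.31 and 9.36. Its groups were apart, as for no other of the 14 neuron markers. Groups were also apart for 1 of 10 endothelial (Vwf) and 1 of 10 choroid plexus markers (Steap1). The astrocyte, oligodendrocyte and microglia lists held 0 such markers, beside 1.19% of all probe sets with knockouts lower. Tdo2 (-0.17) and Camk2a (-0.15) came next by p among neuron markers. The smallest p among the others belonged to Aqp4 (0.18), Sox9 (0.17) and Gfap (-0.17) of astrocytes, Ugt8a (0.30), Ermn (0.20) and Mog (0.14) of oligodendrocytes, Cx3cr1 (0.13), C1qb (-0.15) and C1qc (0.12) of microglia, and Steap1 (-0.17), Kl (-0.35) and Calml4 (-0.14) of choroid plexus.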
